A study of Mus musculus with 13 samples.

Results

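Wnt proteins are secreted, lipid-carrying ligands that act over short distances on Frizzled receptors and their co-receptors. In skin, Wnt signalling through β-catenin is needed for hair follicle induction and for the upkeep of basal keratinocytes, while other Wnt ligands act mainly on cell movement and polarity without β-catenin. Keratinocytes, dermal fibroblasts and the cells of the follicle each make their own set of ligands, so the cell of origin is part of what a ligand does.

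The ligand genes examined here were Wnt3, Wnt4, Wnt5a, Wnt6, Wnt7a, Wnt7b, Wnt10a, Wnt10b, Wnt11 and Wnt16, taken by symbol from the gene table of the matrices. They are 10 of 27998 genes, and the table held 9 other Wnt ligand genes. All 10 had UMIs (unique molecular identifiers, each standing for 1 captured RNA molecule). Over the 12 v2 libraries together the totals were 70747 UMIs for Wnt4, 63731 for Wnt6, 22372 for Wnt5a, 17730 for Wnt10a, 15615 for Wnt7b, 13030 for Wnt3, 12704 for Wnt16, 3890 for Wnt11, 3216 for Wnt7a and 3105 for Wnt10b. The last 3 therefore rest on the fewest molecules. The question was which cell types of developing skin held each ligand, and whether that changed with age or with loss of Grhl3, a transcription factor of keratinocyte differentiation.

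The samples were single-cell libraries of C57BL/6 mice, wild type (WT) or carrying the deletion Grhl3-/- (KO), a genotype with spina bifida in every embryo per the study's methods. There were 2 WT and 2 KO libraries at each of embryonic days E14.5 and E16.5, made from whole back skin, and 2 WT and 2 KO libraries at P0 (newborn), made from epidermis peeled off the dermis, all of them 10x Chromium v2. Another library, P0 WT epidermis made with Chromium v1, has no partner of its chemistry, so it entered no test and its values are printed beside the others as "v1". Since the tissue taken and the time of enzyme digestion changed along with age between E16.5 and P0, age and preparation cannot be told apart in that step.

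After filtering, 86507 cells remained (24357 at E14.5, 27298 at E16.5 and 34852 at P0), with 49195602 to 105580896 UMIs per library. Cells were clustered within each age, and 89.3% of them fell in clusters that could be named "-like" a cell type from marker genes. No Wnt family gene entered the clustering. Levels are in CPM, the UMIs of a gene per 1e6 UMIs of all the cells of that class in that library, so a library is 1 value and cells are not replicates. A tag at the 3′ end is not scaled by gene length, and levels are compared between classes or groups, never between genes. Cells whose barcode also stood in another library of the same age numbered 603 at E14.5, 736 at E16.5 and 886 at P0. Grhl3 was lower in both KO libraries than in both WT libraries in suprabasal-like cells at each age, for example 6.04 and 8.6 CPM against 15.3 and 17.0 at P0, where v1 had 14.2. UMIs of Grhl3 remained in KO, and 3′ tags do not resolve the allele. Xist was high in 1 E14.5 WT, both E16.5 WT and 1 E16.5 KO library and in no other, so sex was not balanced between genotypes before birth and differs from the 1 male and 1 female per group that the methods state. Both P0 WT v2 libraries had the Y-linked gene Ddx3y (50.5 and 52.5 CPM) and both E16.5 WT libraries Xist (1310 and 1160). Sex thus changed along with age between E16.5 and P0 in WT and cannot be told apart from it.

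In the mouse genome (GRCm38, GENCODE M21), 2 of the ligands are neighbours. Wnt6 lies at chr1:74771892-74785322 and Wnt10a at chr1:74791516-74804179, both on the plus strand and 6193 bases apart. Wnt3 lies at chr11:103774150-103817957, 24328 bases from Wnt9b, and Wnt10b at chr15:98770712-98778150, 11706 bases from Wnt1. The others lie alone among Wnt genes: Wnt4 at chr4:137277489-137299726, Wnt5a at chr14:28504750-28527448, Wnt7a at chr6:91363981-91411363, Wnt7b at chr15:85535437-85582473, Wnt11 at chr7:98835112-98855195 and Wnt16 at chr6:22288227-22298522. Antisense genes overlap Wnt5a (Gm2670), Wnt6 (Gm29539) and Wnt7b (AU022754), and a pseudogene, Gm8398, overlaps Wnt11.

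Promoter sequences are shown for 3 of the ligands that the promoter table held and that the comparisons below turn on: Wnt4, which rose in 4 epidermal classes by P0, Wnt6, which was called in 3 classes between genotypes, and Wnt16, which was called in both directions. They are the 250 bases before the RefSeq start (GRCm38.p6), printed on the strand of the gene, which is plus for all 3, with the GC box (GGGCGG or CCGCCC) in capitals. The windows are chr4:137277385-137277634 for Wnt4, chr1:74771642-74771891 for Wnt6 and chr6:22287977-22288226 for Wnt16.
Wnt4: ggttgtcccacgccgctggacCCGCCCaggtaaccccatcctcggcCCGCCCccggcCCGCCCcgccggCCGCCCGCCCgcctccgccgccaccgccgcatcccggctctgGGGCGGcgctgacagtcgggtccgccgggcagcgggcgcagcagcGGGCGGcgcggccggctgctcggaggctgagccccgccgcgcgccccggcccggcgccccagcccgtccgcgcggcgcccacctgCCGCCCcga
Wnt6: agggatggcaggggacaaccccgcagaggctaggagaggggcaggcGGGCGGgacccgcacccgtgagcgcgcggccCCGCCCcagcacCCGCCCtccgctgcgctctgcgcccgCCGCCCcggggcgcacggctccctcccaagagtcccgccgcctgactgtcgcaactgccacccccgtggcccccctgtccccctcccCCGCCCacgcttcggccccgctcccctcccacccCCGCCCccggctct
Wnt16: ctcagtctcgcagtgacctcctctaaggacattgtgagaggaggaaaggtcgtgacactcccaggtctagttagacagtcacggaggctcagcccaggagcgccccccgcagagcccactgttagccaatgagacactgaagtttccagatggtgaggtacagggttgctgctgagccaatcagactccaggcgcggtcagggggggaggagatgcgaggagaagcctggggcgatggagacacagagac

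The Wnt4 window held 8 GC boxes and was 85.2% G or C, the Wnt6 window 6 and 79.6%, and the Wnt16 window 0 and 59.2%. Wnt5a, Wnt7b and Wnt10a had no entry in the promoter table. In windows that also take in the 50 bases after the start, a GC box stood in 6 of the 8 windows of the members with an entry and in 35.7% of all 32851 windows. The Grainyhead-type motif AACNGGTT, searched on both strands, stood in 0 of these 8 and in 2.09% of all windows, its palindromic form AACCGGTT, which AACNGGTT includes, in 0 and 0.146%, and the TCF/LEF core CTTTGA in 1 of the 8, that of Wnt11, and in 16%. These are letter matches in short windows and not measured binding.

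**Figure D1:**
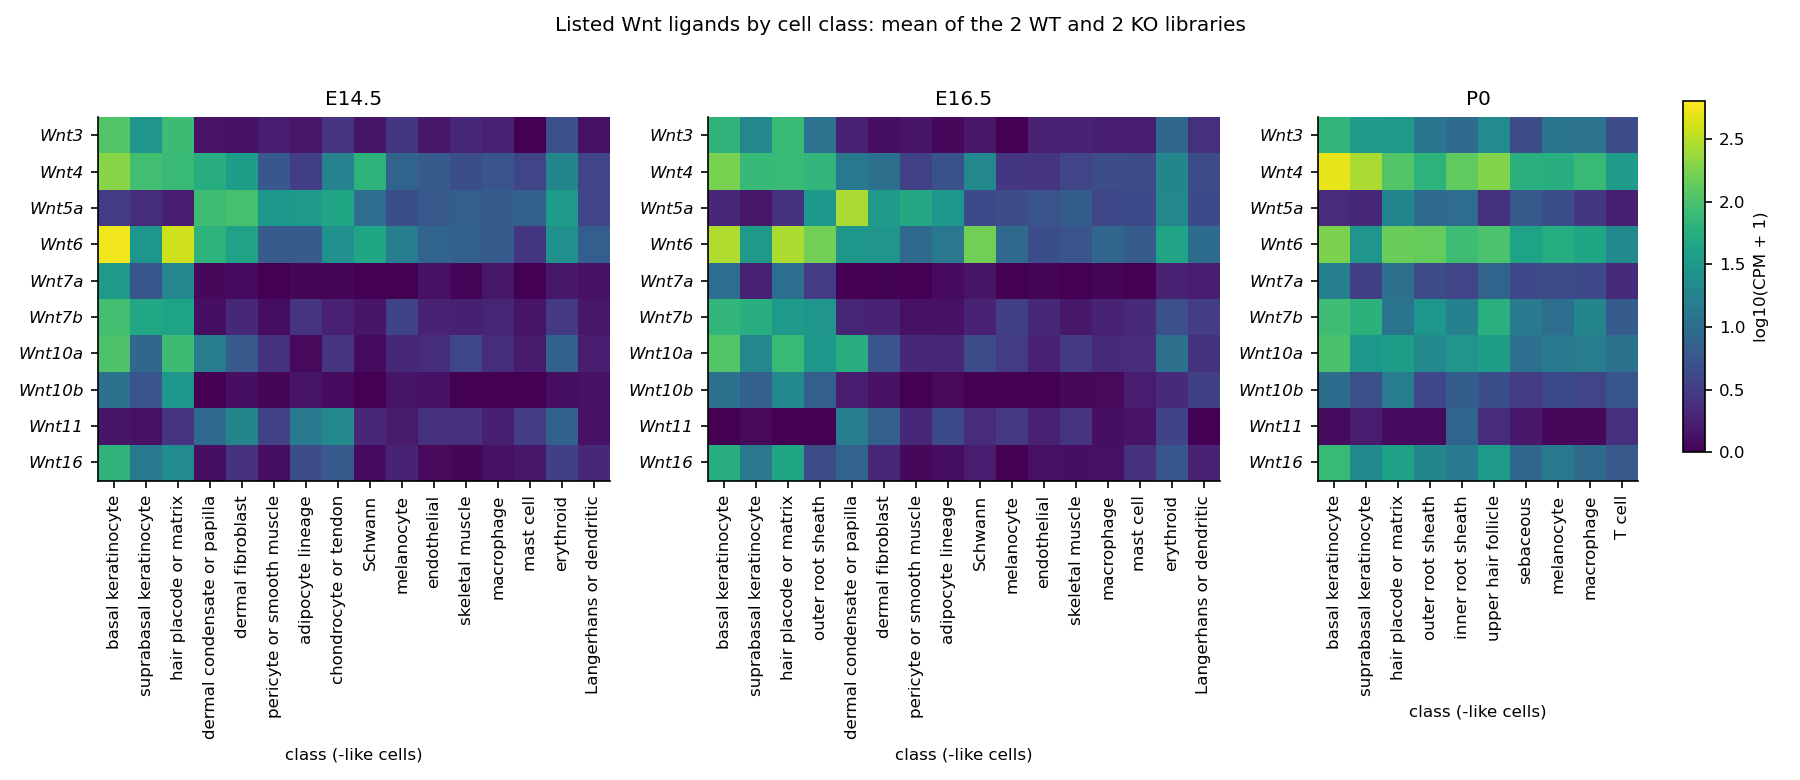
Mean level of each ligand (rows) in each cell class (columns) at E14.5, E16.5 and P0, as log10(CPM + 1), over the 2 WT and 2 KO v2 libraries. Wnt3, Wnt4, Wnt6, Wnt7b, Wnt10a and Wnt16 are high in basal-like cells at each age, while Wnt5a is high in fibroblast-like and dermal condensate-like cells before birth.

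Of the 10 ligands, Wnt3, Wnt4, Wnt6, Wnt7a, Wnt7b, Wnt10a and Wnt16 had their highest mean at E14.5 in basal keratinocyte-like cells, Wnt10b in hair placode or matrix-like cells (placode/matrix-like below), Wnt5a in dermal fibroblast-like and Wnt11 in chondrocyte or tendon-like cells. Classes are ranked among those with values in all 4 v2 libraries of an age. Over the 3 ages, the highest class was the same in all 4 v2 libraries for 22 of 30 pairs of a ligand and an age (7, 7 and 8 at E14.5, E16.5 and P0), and it did not overlap with the second class for 14 of the 30. These orders are descriptions, since the classes were built from the same cells, and no test was made between classes. Classes that should lack a ligand show what free or mixed-in RNA gives. Before birth macrophage-like, mast cell-like and endothelial-like cells had at most 10.68 CPM of Wnt4 and 12.18 of Wnt6 in any library, while erythroid-like cells had up to 30.65 of Wnt4 and 45.45 of Wnt6 at E14.5 and 33.62 and 72.04 at E16.5. A level at or below the erythroid-like values of its age is printed as a value and not read as expression. At P0 T cell-like cells of the v2 libraries had 15.89 to 25.66 of Wnt6 and 5.298 to 14.97 of Wnt10a, and an unnamed myeloid cluster led by Cd74, C1qa and C1qb had 9.93 and 2.337 in WT and 8.708 and 2.65 in KO. For Wnt4 the P0 T cell-like cells had 16.68 to 55.9 and the macrophage-like cells 42.33 to 98.62.

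Wnt3 is a ligand of the β-catenin pathway in the epidermis and hair follicle. In basal-like cells at E14.5 it stood at 109.4 and 116.1 CPM in the WT libraries and 96.0 and 116.1 in the KO libraries, and in placode/matrix-like cells at 54.67 and 107.3 against 60.78 and 109.4. Those classes overlapped. At E16.5 placode/matrix-like cells had 78.97 ± 22.5 CPM (SD, n = 4 libraries, as in all means here) and basal-like cells 64.99 ± 10.9, again with overlap, and at P0 basal-like cells had 67.64 ± 11.6, 2.03-fold the level of suprabasal-like cells. The share of all Wnt3 UMIs that came from basal-like cells had a median of 56.3% at E14.5, 41.3% at E16.5 and 33.7% at P0.

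Wnt7b, another β-catenin ligand of the epidermis, stood at 91.38 ± 11.4 CPM in basal-like cells at E14.5, 1.93-fold the next class. At E16.5 it was 69.23 ± 3.06 in basal-like cells, only 1.25-fold the next class with values in all 4 libraries, and upper hair follicle-like cells, which reached the cell minimum in 3 libraries, had 93.27 and 124.4 in WT and 82.17 in 1 KO library. At P0 basal-like cells had 88.43 and 81.74 in WT, 96.93 and 73.25 in KO and 119.9 in v1. The ligand was thus spread over the layers of the epidermis more evenly than Wnt3.

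Wnt10a, mutated in human tooth and hair disorders, followed basal-like cells as well. It stood at 102.7 ± 10.6 CPM there at E14.5 beside 82.88 in placode/matrix-like cells, at 86.25 and 97.63 (WT) and 114.9 and 142.8 (KO) at E16.5, and at 96.99 ± 15.3 at P0, when basal-like cells were 2.72-fold above the next class. Wnt10b, its close relative and an early marker of the hair placode, was the ligand most tied to the epithelium of the follicle before birth: placode/matrix-like cells at E14.5 had 30.37 and 32.01 CPM in WT and 21.14 and 32.92 in KO, 2.82-fold the basal-like level of 10.33, and at E16.5 had 20.95, 2.08-fold. At P0 placode/matrix-like cells still led with 13.99 ± 1.75, 1.60-fold the next class. Because basal-like cells are more numerous, they nevertheless gave the largest share of Wnt10b UMIs before birth, with medians of 35.5% and 29.0%. In dermal condensate-like cells at E14.5 Wnt10b had 0 UMIs in 4 libraries, which allows a level of up to 0.6722 CPM, counting error only.

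Wnt7a was low throughout. Basal-like cells had 33.61 and 29.42 CPM in WT and 19.55 and 40.51 in KO at E14.5, and a mean of 9.436 at E16.5, level with 9.418 in placode/matrix-like cells. At P0 they had 10.29 and 6.361 in WT and 28.64 and 14.97 in KO, so their mean of 15.07 lay above that of E16.5 through KO only. Placode/matrix-like cells of P0 had 8.235 and 11.56 in WT and 12.33 and 7.082 in KO. Wnt16, a ligand also known from bone and joint tissue, led in basal-like cells at E14.5 with 67.94 and 68.91 in WT and 62.66 and 62.29 in KO, 3.08-fold the next class and without overlap. At E16.5 it stood at 57.65 in basal-like and 43.13 in placode/matrix-like cells, and at P0 at 77.15 ± 24.7 in basal-like cells, where 1 KO library (113.8) lay above the other 3 (61.2 to 69.51).

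Wnt4, which acts on basal stem cells of the epidermis, was highest in basal-like cells at each age. At E14.5 basal-like cells held 193.1 and 205.9 CPM in WT and 180.5 and 215.4 in KO, 2.215-fold the suprabasal-like level of 89.72. Schwann-like (63.68), dermal condensate-like (54.48) and fibroblast-like cells (35.2) were lower. Fibroblast-like cells were so many that they held a median of 45.9% of the Wnt4 UMIs against 23.1% in basal-like cells, but their lowest library (29.83) was at a level that erythroid-like cells also reached, and the part of free RNA in this share was not tested. At P0 the basal-like level was 547.7 and 591.4 in WT, 534.0 and 320.3 in KO and 563.1 in v1. The P0 basal-like class was itself uneven: its cluster led by H19, Krt15 and Stfa1 held 825.8 CPM in WT, 773.7 in KO and 794.4 in v1, while the cluster led by Krt14, Postn and Dcn held 151.9, 265.5 and 308.2. Wnt4 is among the leading genes of the first of these clusters, and the values are a description of clusters drawn from the same cells, with no test.

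Wnt6 was highest in basal-like and placode/matrix-like cells before birth. At E14.5 it stood at 470.6 and 557.0 CPM in basal-like cells of WT, 601.9 and 547.0 in KO, and at 399.6 ± 36.6 in placode/matrix-like cells. Fibroblast-like cells had only 40.53, a level that erythroid-like cells also reached, but being many held a median of 35.3% of its UMIs, against 41.1% in basal-like cells. The level was not even among fibroblast-like cells: the E14.5 fibroblast-like cluster led by Crabp1, Stmn2 and Sfrp5 had 59.35 CPM of Wnt6 in WT beside 8.931 CPM of the keratinocyte gene Krt5, and the cluster led by Aspn, Mfap4 and Sfrp2 had 4.854. At E16.5 Wnt6 was level between basal-like (295.3) and placode/matrix-like cells (286.9), and Schwann-like cells reached 172.3 and 171.7 in WT and 142.3 and 146.2 in KO. At P0 the means over both genotypes were 177.2 in basal-like, 149.0 in placode/matrix-like and 135.3 in outer root sheath-like cells. The basal-like lead came from KO (218.0 and 217.5, against 125.5 and 147.7 in WT), and in WT alone basal-like cells had the lowest mean of these classes.

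Wnt5a, the chief ligand of the pathways without β-catenin, was dermal. Fibroblast-like cells had 92.67 and 111.0 CPM in WT and 80.71 and 96.41 in KO at E14.5, dermal condensate-like cells 92.49 and 86.47 in WT and 77.14 and 84.73 in KO, and basal-like cells 2.105. Within the fibroblast-like class the cluster led by Aspn, Mfap4 and Sfrp2 was highest at 174.6 in WT. At E16.5 the dermal condensate-like cells, which carry markers of the future dermal papilla, held 268.6 and 289.7 in WT and 269.6 and 269.7 in KO, 5.74-fold the next class, pericyte-like cells, without overlap. In the P0 epidermis, the few fibroblast-like cells that remained had 180.8 in 1 WT and 173.0 and 182.3 in both KO libraries, and placode/matrix-like cells had 17.48 ± 7.0 and supplied a median of 47.5% of the UMIs.

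Wnt11, the other ligand of that kind, was low and mesenchymal before birth. Chondrocyte or tendon-like cells had 19.71 ± 7.6 CPM at E14.5, fibroblast-like cells 17.73 and adipocyte-like cells 13.39, and fibroblast-like cells gave 73.7% of the UMIs. At E16.5 dermal condensate-like cells led with 14.25 ± 3.6, and in basal-like cells Wnt11 had 0 UMIs in 4 libraries, which allows up to 0.2204 CPM. At P0 the highest class with all 4 libraries was inner root sheath-like cells with 7.232 and 5.8 in WT, 9.831 and 5.462 in KO and 10.24 in v1, 5.08-fold the next such class. The few fibroblast-like cells of 3 libraries had 3.69 in WT and 15.72 and 3.227 in KO, on 1, 11 and 2 UMIs.

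The levels of the ligands were set beside all 13126 genes with a level of at least 10 CPM somewhere, by Pearson's r of log2(CPM + 1) over 46 WT values of a class at an age, which share libraries and depth. Closest to Wnt3 were Kremen2 (r = 0.934), Kdf1 and Sh3rf2, to Wnt7b Epha1 (0.952), Ap1m2 and Esrp1, and to Wnt16 Fermt1 (0.915), Car12 and Fras1. Wnt4 ran with Edaradd (0.884), Ptprf and Bcl11b, and Wnt10a with Bcl11b (0.882), Edaradd and Cxcl14, so these 2 ligands shared a pair of their closest genes. The closest to Wnt6 were Sostdc1 (0.903), Fst and Cxcl14, to Wnt10b Gyltl1b (0.9), Kremen2 and Irx4, and to Wnt7a Gm13219 (0.917), Mpped1 and Dlx4os. The dermal ligands had other partners, Gm26523 (0.869), Nfatc4 and Adamts4 for Wnt5a and Wscd2 (0.867), Cacna1g and C1qtnf7 for Wnt11. Among the members themselves, Wnt3 and Wnt16 had r = 0.893, the neighbours Wnt6 and Wnt10a 0.846, Wnt5a and Wnt11 0.718, and Wnt3 and Wnt5a -0.525.

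**Figure D2:**
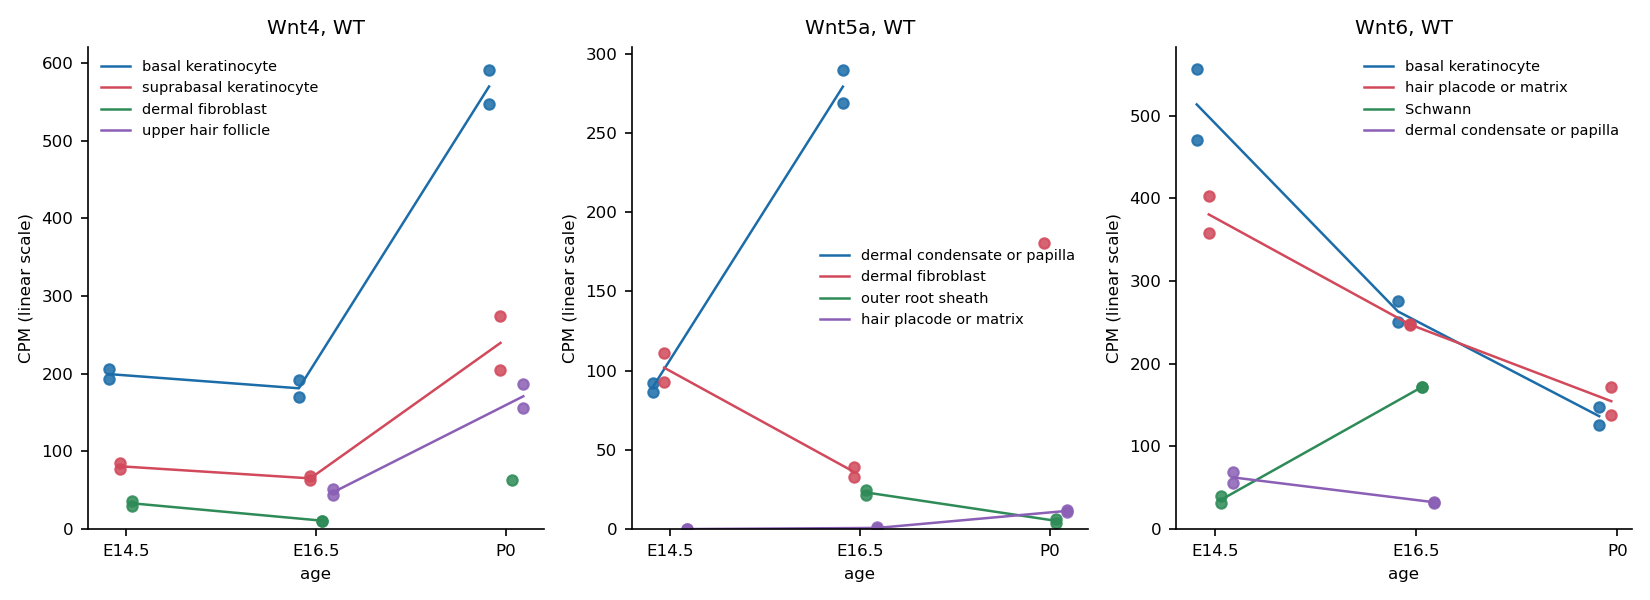
Level (CPM) of Wnt4, Wnt5a and Wnt6 in the WT v2 libraries at the 3 ages, in 4 cell classes each. Points are libraries and lines join the means of 2. Wnt4 in basal-like cells rises at P0, Wnt5a rises in dermal condensate-like and falls in fibroblast-like cells at E16.5, and Wnt6 in basal-like cells falls at each step.

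From E14.5 to E16.5 in WT, the dermal ligands parted. Wnt5a rose in dermal condensate-like cells from 92.49 and 86.47 to 268.6 and 289.7 CPM (log2 difference 1.54 ± 0.128, SE; adjusted p = 2.36e-09) and fell in fibroblast-like cells from 92.67 and 111.0 to 32.61 and 39.38 (-1.34 ± 0.105, 4.81e-06). Wnt4 fell in fibroblast-like (36.65 and 29.83 to 11.04 and 10.69; -1.45 ± 0.167, 7.58e-05), dermal condensate-like (-1.88 ± 0.30, 4.68e-05) and Schwann-like cells (-1.48 ± 0.310, 0.00219), and Wnt11 fell in fibroblast-like cells (16.74 and 19.03 to 6.754 and 7.681; -1.15 ± 0.184, 0.00072). For Wnt4 the E16.5 values in fibroblast-like and dermal condensate-like cells lay below those of erythroid-like cells of the same libraries (20.86 and 33.62), and those in Schwann-like cells (23.65 and 13.56) lay near or below them. The E14.5 values of Wnt4 in fibroblast-like cells lay near the highest erythroid-like value of that age. In none of the calls named so far did the groups overlap, a share not given for all called genes. Dissociation-stress genes moved over this interval too, with 6 of 9 tested higher in dermal condensate-like, 4 of 10 in Schwann-like and 3 of 11 in placode/matrix-like cells and none lower, 3 higher and 2 lower of 11 in fibroblast-like and 1 and 4 of 11 in suprabasal-like cells. Of 4 red-cell genes 3 were higher and 1 lower in basal-like, dermal condensate-like, fibroblast-like and Schwann-like cells. In placode/matrix-like cells 3 were higher, and in suprabasal-like cells 1 was lower. The part of both lists in the ligand values was not tested. All p-values of this kind are from edgeR's quasi-likelihood test on the summed UMIs of 2 libraries per group, adjusted over all genes of a class and comparison by Benjamini-Hochberg, with 0.05 as the threshold. Per the study's methods the animals of an age were littermates, and p-values measure the spread between 2 libraries a group.

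In the same interval 3 of the 9 ligands tested in basal-like cells were lower and none higher, beside 766 lower and 993 higher of 11957 genes there. Wnt6 fell from 470.6 and 557.0 to 251.1 and 275.6 (-0.85 ± 0.122, adjusted p by edgeR = 0.000143), Wnt3 from 109.4 and 116.1 to 52.89 and 58.61 (-0.90 ± 0.147, 0.000426) and Wnt7a from 33.61 and 29.42 to 11.19 and 10.13 (-1.43 ± 0.389, 0.0199), while Wnt4, Wnt7b, Wnt10a, Wnt10b and Wnt16 passed no test there. The Wnt7a call did not hold without WT replicate 2 of E16.5 (-1.32, 0.129). Dissociation-stress genes were higher in the same cells, 5 of 11, and the part of this was not tested. In suprabasal-like cells 3 of 8 ligands were higher and none lower, beside 1165 higher and 1077 lower of 11369 genes, while the median over the 8 was -0.05. One of the 3 was Wnt10a, whose values at both ages lay within the erythroid-like ranges (2.095 to 12.68 at E14.5, 4.026 to 15.61 at E16.5). They are not read as expression. Wnt10a went from 5.149 and 4.125 to 12.47 and 9.73 (1.5 ± 0.329, 0.00577), Wnt10b rose from 2.808 and 2.063 to 6.235 and 7.091 (1.74 ± 0.404, 0.00839) and Wnt7b rose too (0.44 ± 0.143, 0.0434), though without WT replicate 2 of E14.5 these differences were 1.31 (0.103), 1.48 (0.127) and 0.40 (0.25). In placode/matrix-like cells Wnt10a (94.16 in each library to 46.11 and 51.95; -0.92 ± 0.219, 0.0139) and Wnt6 (-0.61 ± 0.158, 0.0247) fell, and without the same library they were -0.94 (0.152) and -0.53 (0.257).

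Schwann-like cells, the glia of skin nerves, had the largest called rise of this interval, Wnt6 from 39.59 and 31.12 to 172.3 and 171.7 CPM (2.30 ± 0.192, adjusted p by edgeR = 7.39e-09). Both E14.5 Schwann-like values lay below the highest erythroid-like value of that age (45.45), so the rise has a background level as its base. Basal keratinocyte markers summed over 7 genes rose there too, from 203.0 and 250 to 608.2 and 628.2 CPM, and 5 of the 5 tested were higher. In basal-like cells of the same libraries Wnt6 was 251.1 and 275.6. Wnt10a rose in dermal condensate-like cells from 14.92 and 12.52 to 48.28 and 45.02 (1.66 ± 0.340, 0.000787), beside a rise of the basal marker sum from 39.78 and 48.92 to 272.3 and 476.6, while Wnt6 fell in the same cells (-1.04 ± 0.216, 0.000915) to 31.69 and 33.27, below the erythroid-like values of E16.5 WT (45.76 and 72.04). The part of keratinocyte RNA in these rises was not tested. Smaller calls, in pericyte-like cells for Wnt5a (0.94 ± 0.227, 0.0111) and Wnt6 (1.60, 0.0232) and in adipocyte-like cells for Wnt6 (1.86, 0.0292) and Wnt11 (-1.94, 0.0332), complete the 21 calls of 69 pairs tested (9 higher, 12 lower; 30.4%) in 13 classes. The Wnt6 values of E16.5 in pericyte-like and adipocyte-like cells (8.733 to 13.92) lay below the erythroid-like values. These 4 calls did not hold without 1 of the E16.5 WT libraries (0.81, 0.0823; 1.38, 0.188; 1.71, 0.145; -1.23, 0.281), and 11 of the 21 calls held under each left-out library. Over all genes and classes 14.9% were called.

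From E16.5 to P0 in WT, where preparation and sex changed with age, Wnt4 rose through the layers of the epidermis. It went from 192.0 and 170.4 to 547.7 and 591.4 CPM in basal-like cells (1.63 ± 0.221, adjusted p by edgeR = 1.02e-05), from 67.73 and 62.83 to 274.1 and 205.1 in suprabasal-like cells (1.96 ± 0.232, 2.26e-05), to 122.6 and 138.1 in granular-like cells (called, 0.000633) and from 43.66 and 50.97 to 186.3 and 155.5 in upper hair follicle-like cells (1.84 ± 0.334, 0.00148). Wnt6 fell further in basal-like (251.1 and 275.6 to 125.5 and 147.7; -0.97 ± 0.122, 4.5e-06) and placode/matrix-like cells (247.7 and 247.3 to 137.9 and 171.6; -0.66 ± 0.142, 0.0011) and in granular-like cells (-2.30, 0.0108), and rose in upper hair follicle-like cells (0.94, 0.00765), where with finer clustering (resolution 1.5) it was instead called lower (-1.35, 0.0191). In granular-like cells the E16.5 values of Wnt4, 24.57 and 5.825, rest on 10 and 4 UMIs and lie near or below the erythroid-like level of those libraries (20.86 and 33.62), so no fold is given. The 2 ligands with the most UMIs therefore moved in opposite directions in basal-like cells. Dissociation-stress genes changed in this step as well, with 2 higher and 7 lower of 11 in basal-like, 1 and 6 in suprabasal-like, 2 and 5 in granular-like and 2 and 7 in upper hair follicle-like cells, and all 4 red-cell genes were lower in each of these classes. The part of the changes of preparation and sex in the ligand values was not tested.

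Calls were made in the follicle classes as well. In outer root sheath-like cells Wnt16 rose from 2.644 and 5.964 to 22.71 and 24.34 CPM (2.54 ± 0.407, adjusted p by edgeR = 0.000148) and Wnt5a fell from 24.85 and 21.47 to 6.611 and 3.838 (-2.09 ± 0.267, 2.07e-05). Erythroid-like cells of E16.5 had 0 to 10.21 of Wnt16 and 12.98 to 23.55 of Wnt5a, so both started at or near background. Dissociation-stress genes had 1 higher and 7 lower of 11 in outer root sheath-like and 1 and 9 in placode/matrix-like cells. All 4 red-cell genes were lower in both classes. The part of these in the ligand values was not tested. In placode/matrix-like cells Wnt16 rose from 31.66 and 31.46 to 52.28 and 63.4 (0.90 ± 0.204, 0.00162), Wnt7b fell from 37.85 and 41.7 to 11.34 and 11.12 (-1.80 ± 0.308, 0.000138), and Wnt3 (-0.95 ± 0.228, 0.00237) and Wnt10a (-0.69, 0.00362) fell. Wnt5a was called higher there too, at 12.2 and 10.8 against 0.0 and 1.463, a ratio of 16.11 with a 95% counting interval of 4.425 to 133.6, since E16.5 gave 2 UMIs. This class holds different clusters at the 2 ages (placodes and early germs before birth, matrix at P0), and its basal marker sum was 11510 and 14470 at E16.5 and 4974 and 4422 at P0. With coarser clustering (resolution 0.6) the differences of Wnt3, Wnt5a, Wnt6 and Wnt10a changed sign, and Wnt5a was instead called lower (-2.04, adjusted p by edgeR = 6.68e-05).

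In suprabasal-like cells Wnt3 (16.15 and 16.16 to 28.09 and 27.08; 0.84 ± 0.163, adjusted p by edgeR = 0.000871) and Wnt7b (0.47, 0.0112) rose and Wnt10b fell (-1.17, 0.0111). The remaining epithelial calls were Wnt7b in upper hair follicle-like cells (-0.89, 0.0338) and Wnt3 (ratio 7.835, 95% counting interval 2.632 to 38.4) and Wnt10a (-3.24, 0.0181) in granular-like cells. Each of these 3 was lost without 1 WT library (-0.66, 1.24 and -3.30). The E16.5 values of Wnt3 in granular-like cells, 7.372 and 0.0 on 3 and 0 UMIs, lay below the erythroid-like values of those libraries (8.748 and 14.41). They are not read as expression, so the ratio has a background level as its base. The calls of Wnt10a in placode/matrix-like cells (-0.60, 0.0588), Wnt6 in granular-like (-1.71, 0.0809) and upper hair follicle-like cells (0.88, 0.0746) and Wnt7b (0.45, 0.0666) and Wnt10b (-1.05, 0.0994) in suprabasal-like cells were also lost without 1 WT library, as were Wnt3, Wnt10a and Wnt16 in macrophage-like and Wnt4 in melanocyte-like cells. Of all 29 calls of this step 17 held under each left-out library. With v1 added to the P0 WT group, Wnt16 (0.63, 0.232), Wnt6 (-0.43, 0.22) and Wnt10a (-0.07, 0.94) were not called in placode/matrix-like cells. Macrophage-like cells had 6 of 7 ligands higher at P0, beside 2444 higher and 2305 lower of 10556 genes there. Melanocyte-like cells had 2 of 2 higher, beside 1033 higher and 726 lower of 6630 genes. But all 7 basal keratinocyte markers were higher in both classes as well, their sum going from 411.1 and 398.7 to 3108 and 2110 CPM in macrophage-like cells and from 217.1 and 277.9 to 3002 and 2061 in melanocyte-like cells. One macrophage-like cluster had high doublet scores in 49.8% of its cells and 1 melanocyte-like cluster in 54.0%. Over the whole step, 29 of 57 pairs in 8 classes were called (19 higher, 10 lower; 50.9%), beside 43.5% of all genes and classes.

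Before birth no ligand passed the threshold between KO and WT. At E14.5, 73 pairs in 14 classes were tested with 0 calls by edgeR, 13 of them at an unadjusted p under 0.05 and 0 by DESeq2, and the median log2 difference was 0.09 (0.00 over all genes). At E16.5, 78 pairs in 14 classes gave 0 calls by edgeR, 13 at an unadjusted p under 0.05 and 2 by DESeq2, with a median of -0.07 (-0.01 over all genes). Few genes of any kind were called, 0.455% at E14.5 and 0.656% at E16.5, so these counts of 0 do not set the ligands apart. The share of all genes at an unadjusted p under 0.05 is not given here, so the counts of 13 are not read as a result.

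The smallest p-values at these ages were in suprabasal-like and placode/matrix-like cells. In suprabasal-like cells at E14.5 Wnt3 stood at 32.12 and 35.03 CPM in KO and 20.59 and 22.69 in WT (0.65 ± 0.168, adjusted p by edgeR = 0.0598), Wnt10b at 5.96 and 7.028 and 2.808 and 2.063 (1.49 ± 0.404, 0.0708), Wnt10a at 10.6 and 9.522 and 5.149 and 4.125 (1.14 ± 0.331, 0.0943) and Wnt6 at 41.06 and 36.16 and 14.98 and 20.92 (1.08 ± 0.354, 0.14). The Wnt10a and Wnt6 values of both genotypes lay below the highest erythroid-like values of E14.5 (12.68 and 45.45) and are not read as expression. The 7 basal markers summed to 3823 and 4172 CPM in these KO cells and 2762 and 1972 in WT. The clusters of the class were unequal, with that led by Stfa3, Krt1 and BC100530 holding 193 KO and 11 WT cells. At E16.5 Wnt10a stood at 109.6 and 94.18 in placode/matrix-like cells of KO and 46.11 and 51.95 in WT (0.99 ± 0.198, 0.0529), and Wnt16 at 55.58 and 53.82 and 31.66 and 31.46 (0.73 ± 0.260, 0.552), both without overlap between the groups.

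**Figure D3:**
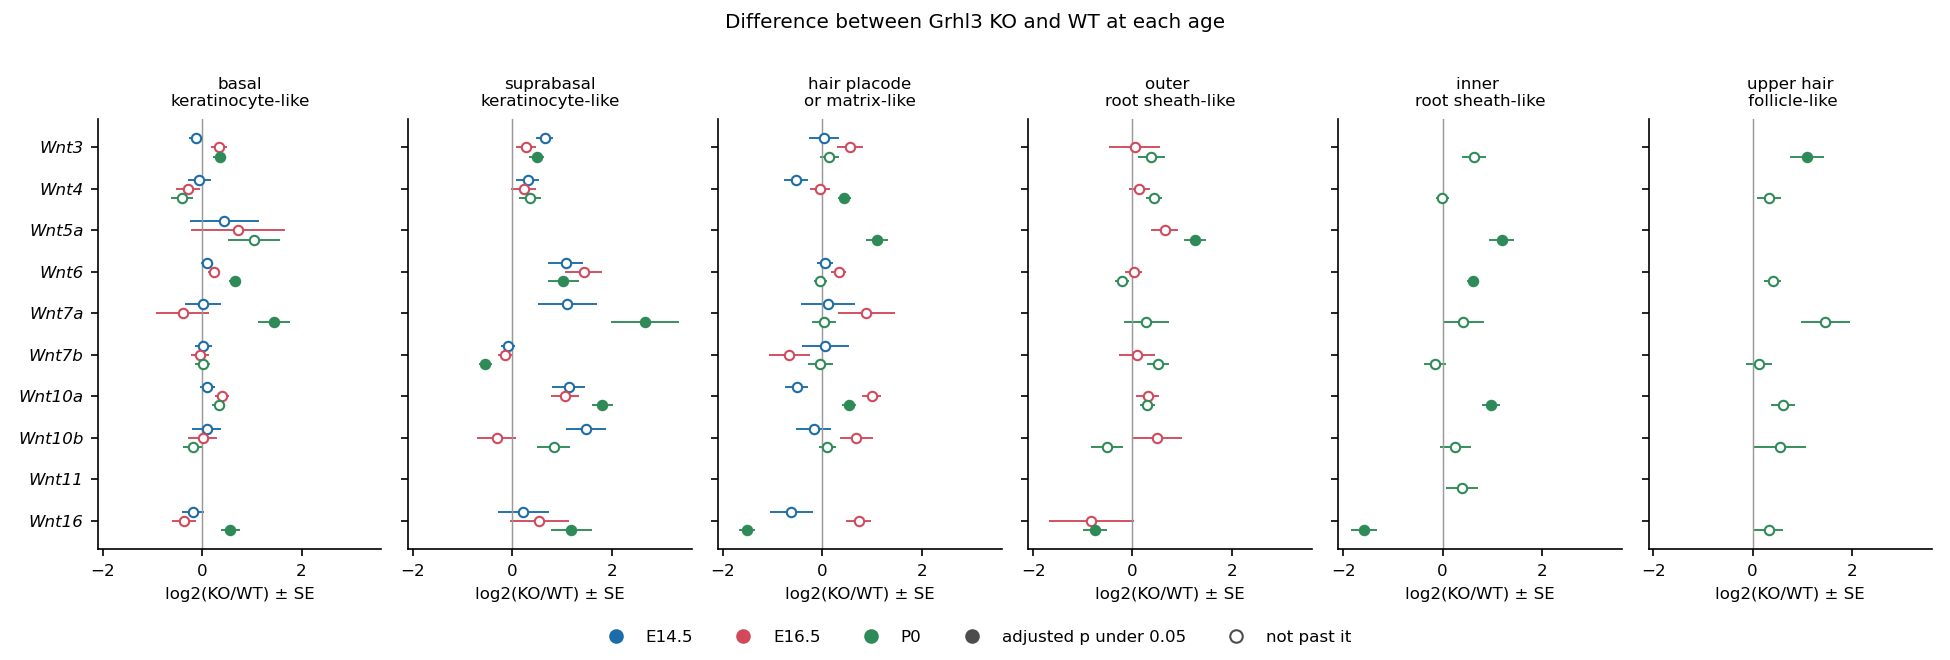
Difference between KO and WT for each ligand as log2(KO/WT) with its standard error, in 6 epithelial classes at P0. Before birth only those tested are shown: basal-like, suprabasal-like and placode/matrix-like cells at E14.5 and E16.5, and outer root sheath-like cells at E16.5. Filled points have an adjusted p under 0.05 by edgeR. No point is filled at E14.5 or E16.5, 21 calls were made at P0 in these 6 classes, and 4 of the values tested are left out for a standard error over 1.

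At P0 ligands were called between genotypes in basal-like, suprabasal-like and 4 follicle classes. None was called in sebaceous-like, macrophage-like, melanocyte-like or T cell-like cells, where 4, 7, 2 and 3 ligands were tested. The median log2 difference in macrophage-like cells was 0.692, so a lack of calls is not read as a lack of difference. Of 69 pairs in 10 classes, 21 were called, 17 higher and 4 lower in KO, in 8 of the 10 ligands (30.4%). Over all genes and classes 21.3% were called, 10.8% higher and 10.5% lower, and the median log2 difference was 0.40 for the ligands and -0.02 for all genes. DESeq2 called 16 pairs. In every one of the 21 pairs both KO libraries lay on the same side of both WT libraries. No such share is given for all called genes, so this is not read as a trait of the ligands. By class, edgeR called 4 of 9 ligands in basal-like cells (35.8% of all genes there), 6 of 8 in suprabasal-like cells (32.9%), 4 of 9 in placode/matrix-like cells (31.4%), 4 of 10 in inner root sheath-like cells (30.6%), 2 of 9 in outer root sheath-like cells (27.7%) and 1 of 8 in upper hair follicle-like cells (13.6%). Wnt10b and Wnt11 passed no test at P0: Wnt10b stood at 13.43 and 14.89 in KO and 11.81 and 15.82 in WT in placode/matrix-like cells, and Wnt11 at 9.831 and 5.462 and 7.232 and 5.8 in inner root sheath-like cells (adjusted p by edgeR = 0.692 and 0.397).

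**Figure D4:**
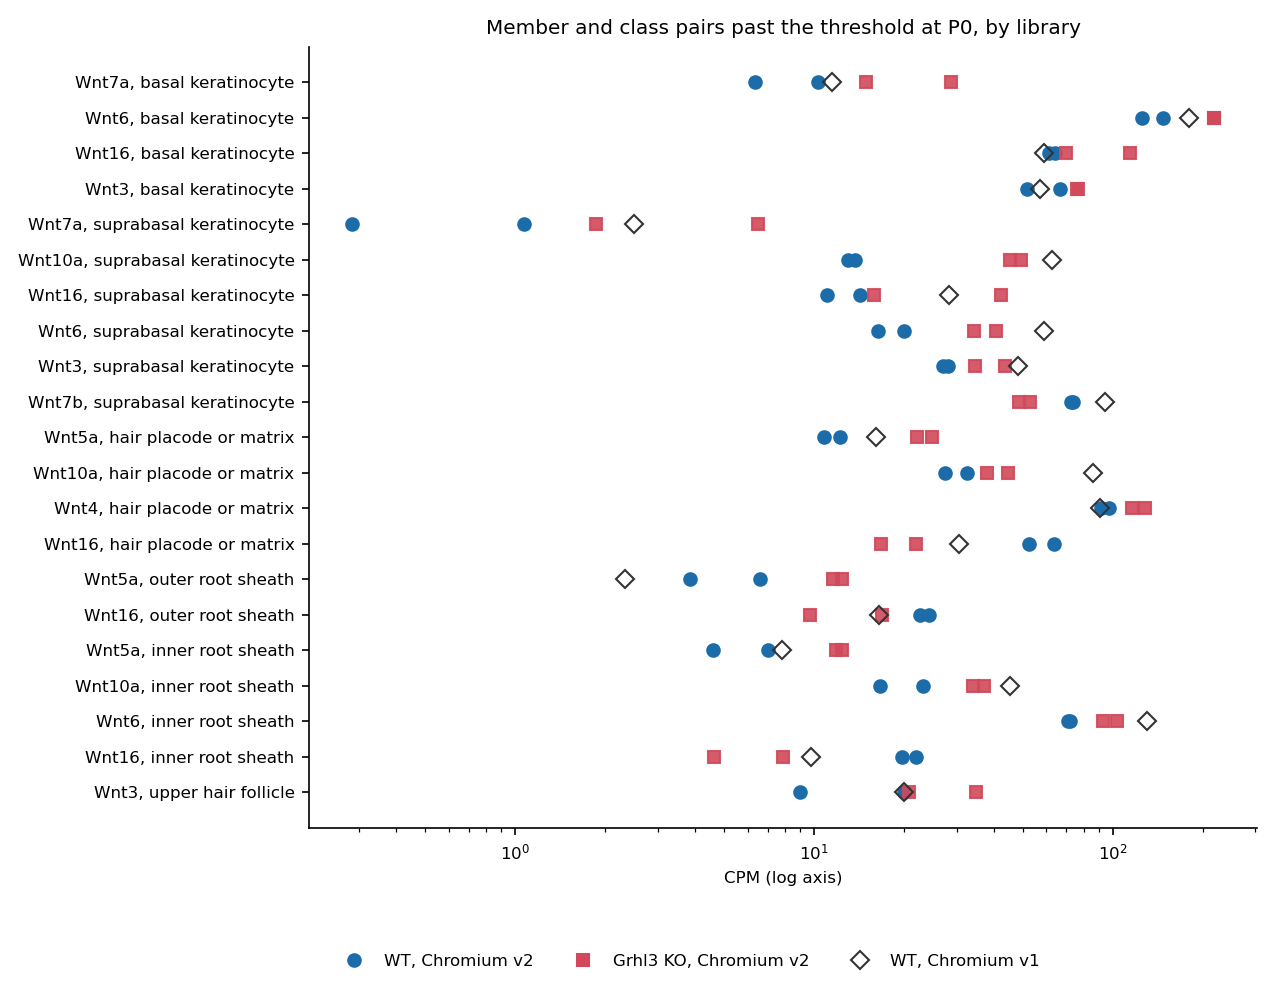
Level (CPM, log axis) of the 21 pairs of a ligand and a class called at P0, by library: the 2 WT v2, the 2 KO v2 and the WT v1 library. The v2 groups do not overlap in any pair, a share not given for all called genes, and v1 lies at or past the KO values in 9 pairs.

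In basal-like cells, the layer that holds the stem cells, 4 ligands were higher in KO. Wnt6 stood at 218.0 and 217.5 CPM in KO against 125.5 and 147.7 in WT (0.67 ± 0.121, adjusted p by edgeR = 0.000499; v1 180.4). Wnt7a stood at 28.64 and 14.97 against 10.29 and 6.361 (1.44 ± 0.323, 0.00251; v1 11.51). Wnt16 was 113.8 and 69.51 against 61.2 and 64.03 (0.57 ± 0.189, 0.0274; v1 58.76), a call that rested on 1 library, since without KO replicate 1 the difference was 0.09 (0.703). Wnt3 was 75.75 and 76.46 against 51.57 and 66.79 (0.36 ± 0.132, 0.0451; v1 56.87) and fell to 0.17 (0.415) without WT replicate 1. Wnt7a likewise lost its call without KO replicate 1 (0.79, 0.0686), so only Wnt6 among the 4 kept it under each left-out library. Wnt4 was 534.0 and 320.3 in KO and 547.7 and 591.4 in WT (-0.41 ± 0.213, 0.15), with the KO libraries far apart. Wnt10a (111.5 and 105.1 against 76.59 and 94.78; 0.0568) and Wnt7b (0.973) were not called. The 4 basal-like clusters were held in unequal parts, that led by Krt14, Postn and Dcn with 43.8% of the KO and 34.6% of the WT cells and that led by Ccl27a, Slco2a1 and Fst with 10.7% and 17.5%. Wnt6 and Wnt7a were higher in KO in each of the 4, and Wnt3 in 3, with 45.56 in KO and 93.41 in WT in the Ccl27a-led cluster. Of 11 dissociation-stress genes 2 were higher and 3 lower in KO basal-like cells, their sum 3123 and 3702 against 2790 and 2905, and of 4 red-cell genes 2 were higher. Their part in the ligand values was not tested.

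**Figure D5:**
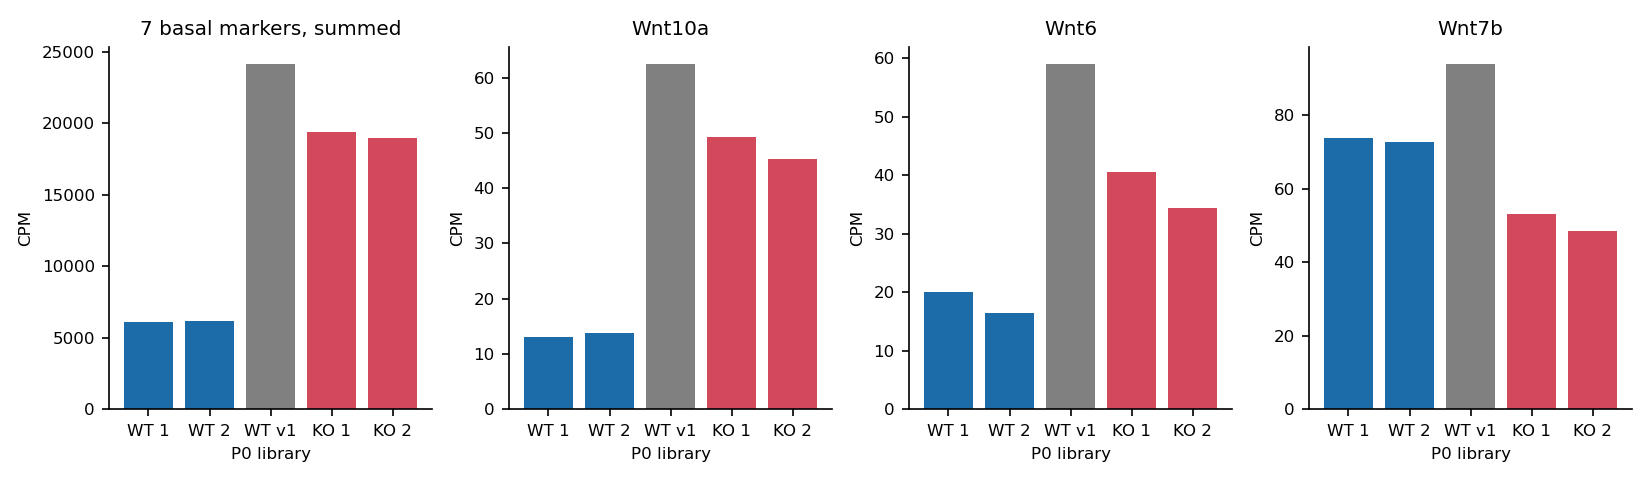
CPM by library in P0 suprabasal-like cells of 7 basal keratinocyte markers summed, Wnt10a, Wnt6 and Wnt7b, with bars starting at 0. The marker sum, Wnt10a and Wnt6 are higher in both KO libraries and in the v1 WT library than in both v2 WT libraries, while Wnt7b is lower in KO and highest in v1.

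Suprabasal-like cells had the most calls. Wnt10a stood at 49.28 and 45.26 CPM in KO against 12.98 and 13.68 in WT (1.81 ± 0.213, adjusted p by edgeR = 3.47e-05), Wnt6 at 40.6 and 34.41 against 20.09 and 16.39 (1.03 ± 0.319, 0.0238) and Wnt3 at 43.7 and 34.6 against 28.09 and 27.08 (0.49 ± 0.148, 0.0211). Wnt16 (42.31 and 15.9 against 11.02 and 14.25; 1.19 ± 0.416, 0.0419) and Wnt7a (6.509 and 1.87 against 1.067 and 0.285; called, 0.00849) were higher mainly through KO replicate 1. The WT values of Wnt7a rest on 6 and 2 UMIs, and macrophage-like cells had 4.142 and 4.88 in KO and 2.348 and 1.283 in WT, so of these 4 values only that of KO replicate 1 lay above them and no fold is given. The WT values of Wnt10a and Wnt6 were near those of WT T cell-like cells (14.97 and 10.73 for Wnt10a, 25.66 and 20.26 for Wnt6) and are not read as expression, so the folds of both have a background level as their base, whereas Wnt10a and Wnt6 in both KO libraries lay above the KO T cell-like cells (9.584 and 5.298 for Wnt10a, 22.36 and 15.89 for Wnt6). Wnt7b was the one ligand that was lower, at 53.0 and 48.44 against 73.77 and 72.68 (-0.54 ± 0.132, 0.00632). Wnt10a and Wnt7b kept their calls under each left-out library, while Wnt3 (0.34, 0.146), Wnt16 (0.34, 0.587) and Wnt7a (adjusted p 0.172) lost theirs without KO replicate 1 and Wnt6 (0.85, 0.137) without WT replicate 2. Wnt4 stood at 361.5 and 262.6 in KO and 274.1 and 205.1 in WT (0.226).

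These 5 higher ligands are ligands of basal-like cells, as is Wnt7b, which was lower. Other basal genes moved with the 5 in the suprabasal-like class. The 7 basal markers (Krt5, Krt14, Krt15, Col17a1, Itga6, Itgb4 and Trp63) summed to 19360 and 18920 CPM in KO and 6059 and 6169 in WT, none of them at 0, with 4 of 7 called higher and 1 lower (median log2 difference 1.02). The 7 suprabasal markers summed to 24940 and 24070 in KO and 45150 and 47600 in WT, 6 of 7 called lower. The class was made of 2 clusters in unequal parts: the one led by Krt6a and Krt6b held 343 KO cells, 42.6% of the class, and 95 WT cells, 9.1%. Within the other cluster Wnt10a was 32.13 in KO and 9.528 in WT and Wnt6 37.27 and 14.91, and Krt5 was 4596 and 806.7. The v1 WT library, in turn, had 24110 of the basal sum, 62.41 of Wnt10a, 58.94 of Wnt6, 48.24 of Wnt3, 28.22 of Wnt16, 2.502 of Wnt7a and 93.83 of Wnt7b. For Wnt10a, Wnt6 and Wnt3 it stood above both KO libraries and for Wnt16 and Wnt7a between them. Among 11 dissociation-stress genes 7 were higher in KO, their sum 3779 and 4101 against 1929 and 2380 (v1 4040). The part of any of these in the ligand values was not tested.

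Wnt16 was lower in KO in 3 of the 4 follicle classes. In placode/matrix-like cells it stood at 21.92 and 16.71 CPM in KO against 52.28 and 63.4 in WT (-1.51 ± 0.161, adjusted p by edgeR = 5.04e-06; v1 30.55), in inner root sheath-like cells at 7.908 and 4.621 against 21.92 and 19.68 (-1.58 ± 0.261, 0.00193; v1 9.757) and in outer root sheath-like cells at 16.84 and 9.678 against 22.71 and 24.34 (-0.76 ± 0.235, 0.0264; v1 16.48). The placode/matrix-like class was made of 4 clusters in unequal parts, and Wnt16 was lower in KO in each of them: 21.83 against 62.43 in the cluster led by Lhx2, Shh and Col27a1, 50.33 against 96.48 in that led by Fam13a, Shh and Fn1, 2.156 against 4.983 in that led by Krt28, Msx1 and Mt2 and 5.459 against 29.32 in that led by Krt35, Mt4 and Odc1. The third of these held 29.1% of the KO cells of the class and 18% of the WT cells. Both its Wnt16 values, and both KO values in inner root sheath-like cells, lay within the range of P0 T cell-like cells (1.514 to 9.584). The KO value of the Krt35-led cluster, 5.459, lay in this range too. These values are not read as expression, so the Krt35-led and inner root sheath-like differences have a background level on their KO side. In upper hair follicle-like cells Wnt16 stood at 46.06 and 22.69 against 31.59 and 29.75 (0.33 ± 0.293, 0.499). No test compared the genotype difference between classes. The outer root sheath call was lost without KO replicate 2 (-0.43, 0.238). Basal markers were lower in the same classes, summing to 2925 and 2384 in KO against 4974 and 4422 in WT in placode/matrix-like cells, 2784 and 2834 against 5114 and 5210 in inner root sheath-like cells and 6529 and 5803 against 8272 and 7678 in outer root sheath-like cells, and the stress genes were higher, 2006 and 2175 against 1475 and 1560 in placode/matrix-like cells. Their part in the Wnt16 values was not tested.

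Wnt5a was higher in KO in the same 3 follicle classes. It stood at 22.05 and 24.89 CPM against 12.2 and 10.8 in placode/matrix-like cells (1.10 ± 0.229, adjusted p by edgeR = 0.0018; v1 16.11), at 12.4 and 11.87 against 4.602 and 7.03 in inner root sheath-like cells (1.19 ± 0.255, 0.00672; v1 7.806) and at 11.58 and 12.43 against 6.611 and 3.838 in outer root sheath-like cells (1.26 ± 0.226, 0.000904; v1 2.329). By cluster of the placode/matrix-like class, Wnt5a lay where Wnt16 was low. It stood at 46.01 in KO and 31.01 in WT in the Krt28-led cluster and at 70.23 and 88.93 in the Krt35-led cluster. Both clusters held a larger share of the KO than of the WT cells of the class, the Krt35-led one 9.4% and 5.3%. Wnt5a stood at 11.27 and 4.214 in the Lhx2-led cluster and at 0.937 and 0.4446 in the Fam13a-led cluster. The part of the unequal shares in the class values was not tested. The inner root sheath-like class was made of 3 clusters, also in unequal parts: that led by Krt28, Mt4 and Dcn held 55.0% of the KO and 41.6% of the WT cells, that led by Krt79 and Alox12e 22.6% and 43.5%, and that led by Krt71, Krt28 and Krt25 22.4% and 14.9%. Of the 10 leading genes of the Krt79-led cluster 2 are inner root sheath markers (Krt73 and Krt25) and as many are markers of the upper hair follicle (Krt79 and Krt17), so its name rests on the score over all markers. The Krt28-led cluster likewise had 2 of its own (Krt28 and Krt27) and as many of the placode/matrix list (Dlx3 and Msx2). In this order Wnt5a stood at 20.25, 4.447 and 5.281 in KO and 14.06, 1.922 and 2.344 in WT, and Wnt16 at 2.126, 15.38 and 3.521 in KO and 6.284, 32.48 and 12.89 in WT. Wnt6 and Wnt10a were also higher in KO in each of the 3 clusters. For Wnt16, both values of the Krt28-led and the KO value of the Krt71-led cluster lay within the T cell-like range (1.514 to 9.584). The 3 calls of Wnt5a and those of Wnt16 in the first 2 classes held under each left-out library. Wnt10a was higher in placode/matrix-like (37.93 and 44.64 against 27.35 and 32.46; 0.53 ± 0.140, 0.00793) and inner root sheath-like cells (37.08 and 34.03 against 16.66 and 23.2; 0.97 ± 0.176, 0.00297), with v1 at 85.77 and 45.37, above every KO library in both. The first of these lost its call without KO replicate 2 (0.38, 0.165) and changed sign when v1 was added to the WT group (-0.11, 0.968).

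The last 3 calls were Wnt6 in inner root sheath-like cells at 103.6 and 92.95 against 70.79 and 71.71 (0.61 ± 0.119, adjusted p by edgeR = 0.00417; v1 129.8), Wnt4 in placode/matrix-like cells at 128.1 and 115.7 against 97.18 and 91.16 (0.44 ± 0.130, 0.015; v1 90.64) and Wnt3 in upper hair follicle-like cells at 34.84 and 20.8 against 20.08 and 9.005 (1.09 ± 0.338, 0.0486; v1 20.09). Without KO replicate 1 the Wnt4 (0.38, 0.117) and Wnt3 (0.56, 0.497) calls were lost, and without integration of the libraries the Wnt4 difference changed sign (-0.07, 0.832). Both WT values of Wnt4 in placode/matrix-like cells lay within the range of P0 macrophage-like cells (42.33 to 98.62) and above that of T cell-like cells (16.68 to 55.9). Wnt6 in placode/matrix-like cells (156.0 and 130.4 against 137.9 and 171.6) and outer root sheath-like cells (131.5 and 113.5 against 140.6 and 155.4) passed no test.

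With the v1 library added to the WT group at P0, 1 of the 21 calls was left, Wnt7b in suprabasal-like cells (-0.64, adjusted p by edgeR = 0.0373), and Wnt16 in placode/matrix-like cells stood at -1.27 (0.105), Wnt6 in basal-like cells at 0.51 (0.239), Wnt5a in placode/matrix-like cells at 0.94 (0.397) and Wnt10a in suprabasal-like cells at 0.72 (0.447). Of the 21 pairs, v1 lay at or past the KO values in 9, between the groups in 7, past the WT values on the far side in 4 and within the WT values in 1. The chemistry and the animal of v1 cannot be told apart.

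The difference between genotypes itself changed with age for 1 ligand. For Wnt16 in placode/matrix-like cells the KO to WT difference was lower at P0 than at E16.5 by -2.24 ± 0.307 (log2, adjusted p by edgeR = 0.000458), since KO was above WT at E16.5 (55.58 and 53.82 against 31.66 and 31.46) and below it at P0. With v1 added it was -2.01 (0.417). In the same class and test 6 of 11 dissociation-stress genes (median 1.28) and 2 of 4 red-cell genes (median 2.83) were higher and none lower. The class holds placodes at E16.5 and matrix at P0, and the preparation differed. Sex differed too, since Xist was high in both E16.5 WT libraries, in 1 E16.5 KO library and in no P0 library. The part of these was not tested. It was the 1 call of 44 pairs in 6 classes (2.27%), beside 6.81% of all genes and classes and 6.33% of genes in that class. In basal-like cells the change for Wnt16 was 0.94 ± 0.301 (0.0528) and for Wnt7a 1.83 ± 0.608 (0.061), neither called.

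The rest of the pathway was counted in fixed lists over the epithelial classes, granular-like cells left out, and, before birth, the dermal fibroblast-like, dermal condensate-like and Schwann-like classes. In KO at P0, of 74 tests of 16 receptors and co-receptors 0 were higher and 17 lower, of 35 tests of the R-spondin axis (which raises Frizzled at the cell surface) 0 and 6, of 52 tests of secreted inhibitors 10 and 6, of 93 tests of effectors and feedback targets 16 and 18, of 15 tests of Wnt lipid transfer and secretion 0 and 2, and of 10 tests of the other Wnt ligands 1 and 0. In the same 6 classes from 13.6% (upper hair follicle-like) to 35.8% (basal-like) of all genes were called. Every receptor call was in the lower direction. The median log2 difference of the receptors ran from -0.33 in basal-like cells to -0.10 in suprabasal-like cells, that of all genes from -0.023 to -0.015 in the same 6 classes. Axin2, a feedback target of β-catenin signalling, stood at 16.58 and 17.02 CPM in KO against 59.55 and 59.14 in WT in suprabasal-like cells (-1.83 ± 0.141, adjusted p by edgeR = 1.45e-06), with v1 at 16.4, next to KO. The 1 other ligand called was Wnt3a in basal-like cells, 24.53 and 12.16 against 5.091 and 6.361 (1.74 ± 0.280, 0.00018; v1 15.51). Dkkl1, a relative of the Dickkopf inhibitors, was lower in suprabasal-like cells, 2.015 and 5.237 against 16.18 and 11.83 (-1.99 ± 0.465, 0.00497; v1 6.394, below both v2 WT libraries). The inhibitor Wif1 was called higher in the same cells at very low levels, 0.9298 and 2.618 against 0.1778 and 0.285 (adjusted p by edgeR = 0.0422; v1 1.668).

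Before birth few members of these lists were called, beside 0.455% of all tests at E14.5 and 0.656% at E16.5. At E14.5 receptors had 2 higher and 0 lower of 66 tests, effectors 2 and 0 of 92, inhibitors 0 and 4 of 60 and the R-spondin axis 0 and 1 of 34. Dkkl1 was lower in suprabasal-like cells at this age, 2.98 and 5.328 against 28.55 and 35.95 (-2.81 ± 0.447, adjusted p by edgeR = 0.00481). In fibroblast-like cells Rspo2, a Wnt-enhancing ligand (1.403 and 0.5569 against 3.318 and 6.71; -2.39 ± 0.463, adjusted p by edgeR = 0.0252), the inhibitor Frzb (2.252 and 2.475 against 5.696 and 6.786; -1.41 ± 0.237, 0.0138) and Dkk3 (7.089 and 6.312 against 10.45 and 13.08; -0.82 ± 0.154, 0.0211) were lower at low levels. All 4 red-cell genes were lower in the same KO cells, and 1 cluster of the class, led by Aspn, Mfap4 and Sfrp2, held 6% of the KO and 16.3% of the WT cells. Their part was not tested. One of the receptors was Fzd6 in suprabasal-like cells, 48.34 and 49.2 against 29.96 and 27.11 (0.80 ± 0.178, adjusted p by edgeR = 0.0313), and Sfrp2, a secreted Wnt binder, was lower in fibroblast-like cells, 401.9 and 341.2 against 603.1 and 742.7 (-0.86 ± 0.107, 0.00301), a gene that leads the cluster of unequal share. At E16.5 effectors had 1 higher and 0 lower of 108 tests, inhibitors 2 and 2 of 68 and the others none. None of the inhibitors tested in suprabasal-like cells was called at this age, so Dkkl1 was not called there. In fibroblast-like cells Dkkl1 was called lower in KO at very low levels, 0.2827 and 0.083 against 1.438 and 1.434 (-2.964 ± 0.508, adjusted p by edgeR = 0.0212). Sfrp1 was higher there, 34.35 and 36.39 against 20.42 and 23.92 (0.689 ± 0.136, 0.0351). The effector called was Ccnd1 in suprabasal-like cells, 35.67 and 30.76 against 12.75 and 10.72 (1.455 ± 0.247, 0.0161). The placode inhibitor Dkk4 stood at 355.7 and 406.6 in KO against 104.6 and 81.21 in WT in placode/matrix-like cells (1.97 ± 0.216, 0.000208), where it is also one of the markers that name the class, and Sostdc1 at 257.2 and 246.7 against 404.0 and 430.2 (-0.79 ± 0.145, 0.0278).

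With age in WT far more genes of every kind were called, 14.9% of all tests from E14.5 to E16.5 and 43.5% from E16.5 to P0. Receptors had 10 higher and 8 lower of 66 tests from E14.5 to E16.5 and 30 and 1 of 60 from E16.5 to P0, and inhibitors 14 and 14 of 60 and then 13 and 16 of 44. Sfrp5 fell in dermal condensate-like cells from 60.66 and 65.99 to 3.772 and 2.936 CPM by E16.5 (-4.26 ± 0.331, adjusted p by edgeR = 1.24e-09) while Wnt5a rose there. By P0 Dkk4 had fallen in placode/matrix-like cells from 104.6 and 81.21 to 0.5438 and 2.096 (-6.03 ± 0.291, 8.63e-11) and Wif1, a secreted inhibitor, in outer root sheath-like cells from 76.68 and 72.17 to 1.15 and 2.06 (-5.45 ± 0.314, 1.28e-08).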

How the data were processed

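The data were droplet single-cell RNA-seq of mouse skin, 12 Chromium v2 libraries in 6 groups of 2 and 1 Chromium v1 library. The submitters' processing notes name Cell Ranger 1.3.1, mm10 and Seurat, while the study's methods name a later Cell Ranger version. The deposited matrices hold raw UMI counts of called cells, without normalization.

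Kept were cells with at most 10% mitochondrial UMIs that had from 600 to 4800 genes at E14.5 or E16.5, or from 900 to 7700 in newborn epidermis. Cells were integrated and clustered within each age (Seurat 5.3.0, 3000 variable genes without Wnt genes, resolution 1.0), and the epithelial cells of E14.5 and E16.5 were clustered again (resolution 0.8), a step chosen after the first clusters were seen. Clusters were named from fixed markers where at least 3 were detected. No doublets were removed, and this was tried as an alternative. UMI counts were summed per library and class with at least 20 cells and tested with edgeR 4.0.16 (R 4.3.3; filterByExpr, TMM, quasi-likelihood test, Benjamini-Hochberg over all genes of a class and comparison), in 1 fit over the 12 v2 libraries. DESeq2 1.42.0 was an alternative. Other steps used Python 3.11.15, numpy 2.4.6, pandas 2.3.3 and scipy 1.17.1. The scripts were tested on simulated data. Kept UMIs per library ran from 49195602 to 105580896, and limits for a count of 0 use 3 counts over the libraries of a class and cover counting error only.

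The 10 members, the pathway lists and the markers were chosen with earlier results of these data known. Named were all members, the 3 genes most like each, and from the pathway lists at most 6 genes per comparison among those past the threshold whose groups did not overlap, by size. Cells in unnamed clusters entered no class. Same-numbered libraries share only a number in the labels.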

Additional observations from a re-analysis of the deposited data

Results flagged for a closer look

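The KO to WT difference of Wnt16 in placode/matrix-like cells differed between P0 and E16.5 by -2.24 on the log2 scale, by a test of the difference itself (edgeR). It was 1 of 44 pairs tested in this way. In the same class and test 6 of 11 dissociation-stress genes and 2 of 4 red-cell genes were higher, and their part was not tested. Sex was not balanced between genotypes at E16.5 or between the ages, and its part was not tested either.

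The P0 WT library of Chromium v1 entered no test and lay outside the range of both v2 WT libraries, at or past the KO side, for several ligands called at P0. Wnt10a stood in it at 85.77 CPM in placode/matrix-like, 45.37 in inner root sheath-like and 62.41 in suprabasal-like cells. Wnt6 stood at 129.8 CPM in inner root sheath-like and 58.94 in suprabasal-like cells. Wnt16 stood at 16.48 CPM in outer root sheath-like and 28.22 in suprabasal-like cells. Wnt3 and Wnt7a stood at 48.24 and 2.5 CPM in suprabasal-like cells.

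Wnt7a stood at 48.38 CPM in WT cells of an unnamed E14.5 cluster led by Fabp7, Aldoc and Fgfbp3, above its level in any named class of that age. WT replicate 1 gave 284 cells of this cluster and WT replicate 2 gave 20.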

How the results depend on the processing

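Over the alternatives run for the 72 called pairs of a ligand, class and comparison, 1604 values kept their direction and side of the threshold, 200 kept only the direction and 8 changed sign. The sign changes were Wnt10a in placode/matrix-like cells at P0 with v1 added (-0.11), Wnt4 there without integration (-0.07), Wnt6 in pericyte-like cells between E14.5 and E16.5 without integration (-0.51), Wnt6 in upper hair follicle-like cells between E16.5 and P0 at resolution 1.5 (-1.35), and in placode/matrix-like cells over that step at resolution 0.6 Wnt10a (0.20), Wnt3 (0.51), Wnt5a (-2.04) and Wnt6 (0.17). Other resolutions change which cells a class holds. The cause of the other changes was not tested.

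The count of calls between KO and WT at E14.5, 0, was 6 without the filter on low counts, 4 with each age fitted alone and 3 at resolution 0.6. At E16.5 the count of 0 became 1 with DESeq2's size factors, 4 without the filter, 3 with ages fitted alone, 3 at resolution 0.6, 1 without integration and 2 with DESeq2. At P0 the 21 calls became 1 with v1 added and 13 without integration, and 14 of them were kept with ages fitted alone. The 29 calls from E16.5 to P0 became 16 at resolution 0.6 and 13 without integration. Part of these lower counts is pairs that then had no test: 13 of the 21 P0 pairs had a value without integration, of which 9 kept their call, and of the 29 pairs 16 had one at resolution 0.6, with 11 kept, and 14 without integration, with 10 kept. The rest of these counts are other pairs or calls in the other direction. The 1 call for the change of the genotype difference became 3 without the filter, 0 with v1 added, 2 with shared barcodes left out, 2 at resolution 0.6, 2 at resolution 1.5, 3 without integration and 2 with DESeq2. With 1 library left out the counts ranged from 0 to 2 at E14.5, 0 to 2 at E16.5, 13 to 21 at P0, 11 to 24 from E14.5 to E16.5, 21 to 29 from E16.5 to P0 and 1 to 3 for the change with age. The lone library left in a group is then assumed to vary like those of the other groups. The lowest counts, 13 and 11, were without KO replicate 1 of P0 and WT replicate 2 of E14.5.

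Same-numbered libraries deviated together at E14.5, where the correlation of their deviations had a median of 0.18 and was over 0.1 in 7 of 10 classes, but not at E16.5 (median -0.01) or P0 (-0.24), and the labels tie the numbers to nothing shared. With the replicate block the counts were 0 at E14.5, 2 at E16.5, 21 at P0, 14 from E14.5 to E16.5, 22 from E16.5 to P0 and 2 for the change with age. Under it 18 of the 21 P0 calls, 13 of the 21 from E14.5 to E16.5 and 20 of the 29 from E16.5 to P0 were kept, where 5 were lost and the others had no test. The 8 lost from E14.5 to E16.5 were Wnt7a in basal-like, Wnt6 and Wnt10a in placode/matrix-like, Wnt5a and Wnt6 in pericyte-like and Wnt7b, Wnt10a and Wnt10b in suprabasal-like cells, each also lost when a library was left out. With the KO numbers crossed at P0, chosen after seeing the data, the counts were 20 at P0, 23 from E16.5 to P0 and 1 for the change with age. The 22 pairs with the same highest class in all 4 libraries ranged from 19 to 24 over 7 alternatives. In granular-like cells from E16.5 to P0 the median log2 difference of all genes was 0.22 rather than near 0, so the differences there are relative to that shift. Depth limits Wnt7a, Wnt10b and Wnt11 most.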

Other observations

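Unnamed clusters, which entered no class, also held ligands. The E14.5 cluster led by Fabp7, Aldoc and Fgfbp3 had 84.24 CPM of Wnt7b, 73.42 of Wnt5a, 48.38 of Wnt7a, 34.72 of Wnt4 and 14.23 of Wnt3 in WT cells. An E16.5 cluster led by Bmp4, Aqp1 and Wisp1 had 27.2 CPM of Wnt10a and 19.77 of Wnt11 in WT cells. Within the E14.5 fibroblast-like class, the cluster led by Mfap5 and Clec3b had 23.64 CPM of Wnt11 and 3.607 of Wnt4, whereas the cluster led by Crabp1, Stmn2 and Sfrp5 had 34.79 of Wnt4, 99.35 of Wnt5a and 19.35 of Wnt10a.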
